A study of Mus musculus with 6 samples.

Results

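Tenascin C (Tnc) and 9 further genes of secreted matrix glycoproteins and matricellular proteins were followed through single-nucleus RNA sequencing of subcutaneous tumors in mice. The 10 genes were Tnc, Fn1, Postn, Spp1, Thbs1, Thbs2, Sparc, Ccn1, Ccn2 and Vcan. They were taken by symbol and gene identifier among the 22623 genes listed in all 6 libraries. No cutoff on a measured value was applied, but earlier results of these data were known, so the choice was not blind to them. All mice were on the C57BL/6 background, were male, carried loxP sites in both copies of the gene for monocarboxylate transporter 2 (MCT2, gene Slc16a7) and carried the tamoxifen-inducible mCre-Tg transgene. From 8 weeks of age, knockout (KO) mice received tamoxifen on 5 consecutive days, and control (CO) mice received vehicle without it, so tamoxifen and deletion cannot be told apart. TC1 cells, a mouse lung tumor line, were then injected under the skin of the flank, and whole tumors were taken after 24 days, although the labels give the tissue as lung. The implanted cells were never deleted for Slc16a7, since the deletion is in the host. There were 3 libraries a group, and the labels do not say whether each came from 1 mouse, so p-values measure the spread between these libraries.

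Matricellular proteins are secreted into the matrix, where they bind cell surface receptors and other matrix proteins and alter adhesion, migration and growth factor access more than they bear load. In adult tissue most are low and appear in wounds and tumors, where fibroblasts, perivascular cells, macrophages and the cancer cells themselves can be their source. Tenascin C and fibronectin (Fn1) are large multidomain glycoproteins of the provisional matrix, periostin (Postn) crosslinks collagen networks, and osteopontin (Spp1) is an integrin and CD44 ligand. Thrombospondins (Thbs1, Thbs2) restrain angiogenesis, and Thbs1 also activates latent TGF-beta. Sparc binds collagen, Ccn1 and Ccn2 are integrin ligands and well-known targets of the YAP/TEAD transcription factors, and versican (Vcan) is a chondroitin sulfate proteoglycan that binds hyaluronan.

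The 6 libraries held 18865 barcodes and 13252572 to 22057084 UMIs (unique molecular identifiers, each standing for 1 captured RNA molecule). After filtering, 17514 nuclei (7660 CO, 9854 KO) remained, with library medians of 1094 to 4873.5 UMIs per nucleus and 0.889 to 6.76% mitochondrial counts, and any pair of libraries shared 19 to 25 barcodes. Clusters were named from marker lists as tumor mesenchymal-like (9557 nuclei), macrophage-like (5297), T/NK-like (811), dendritic-like (146), endothelial-like (102), adipocyte-like (64), host fibroblast-like (61), skeletal muscle-like (57), plasmacytoid dendritic-like (55) and pericyte or smooth muscle-like (29), and 1335 nuclei stayed unnamed. The labelled origin was compared with the levels of 4 Y-linked genes, Uty, Kdm5d, Ddx3y and Eif2s3y. Their summed level per library was 5.43 to 19.7 CPM (counts-per-million of the summed UMIs of a class) in tumor mesenchymal-like and 431 to 572 CPM in macrophage-like nuclei. The naming rule left unnamed any cluster closest to the tumor mesenchymal list in which these genes summed above 1 per 10000 counts. The low level of the largest class was thus partly set by that rule and is no independent check of it. Macrophage markers (14 genes) summed to 2988 to 5910 CPM in the macrophage-like class and 365 to 560 CPM in the tumor mesenchymal-like class. Slc16a7 did not mark the groups: over all nuclei the libraries labelled CO held 127, 159 and 164 UMIs and those labelled KO 264, 106 and 352, and its macrophage-like level was 98.9 to 176 CPM in CO and 122 to 161 CPM in KO. How much of the deleted region the 3′ tags cover was not given in the sources used here, so CO and KO below are the labels. KO replicate 1 stood apart from the other KO libraries in many genes, and results that turn on it are given with and without it.

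Upstream sequences are shown for Tnc and Spp1, whose CO and KO libraries did not overlap in macrophage-like nuclei and on which most comparisons turn, and for Ccn1, the YAP/TEAD target. Each is the 250 bases before the RefSeq transcription start in GRCm38.p6, 5′ to 3′ on the gene's strand, and capitals mark matches on either strand to the TEAD motif GGAATG or the TATA box TATAAA.
Tnc (chr4:64047016-64047265, minus strand): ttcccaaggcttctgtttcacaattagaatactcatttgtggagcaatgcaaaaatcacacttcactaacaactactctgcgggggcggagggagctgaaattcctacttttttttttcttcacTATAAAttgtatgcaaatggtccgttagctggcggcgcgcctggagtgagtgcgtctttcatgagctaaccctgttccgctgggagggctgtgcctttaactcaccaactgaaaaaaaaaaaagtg
Spp1 (chr5:104434861-104435110, plus strand): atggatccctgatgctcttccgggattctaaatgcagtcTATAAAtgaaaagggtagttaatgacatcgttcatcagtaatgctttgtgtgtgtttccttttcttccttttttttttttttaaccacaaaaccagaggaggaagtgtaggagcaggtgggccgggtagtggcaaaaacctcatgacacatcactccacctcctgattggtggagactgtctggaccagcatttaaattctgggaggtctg
Ccn1 (chr3:145649986-145650235, minus strand): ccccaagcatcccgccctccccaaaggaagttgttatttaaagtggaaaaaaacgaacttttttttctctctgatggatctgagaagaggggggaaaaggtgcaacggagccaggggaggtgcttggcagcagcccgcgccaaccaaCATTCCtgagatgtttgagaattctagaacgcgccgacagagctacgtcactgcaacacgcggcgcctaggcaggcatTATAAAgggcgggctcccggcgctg
The Ccn1 window held the TEAD motif 103 bases and a TATA box 25 bases before the start, in positions counted to the first base of the match. The Tnc and Spp1 windows held a TATA box 126 and 211 bases before the start and no TEAD motif. Of 32536 RefSeq mouse windows of this length, 12.6% held GGAATG, 12.3% TATAAA and 6.73% the AP-1 motif TGANTCA, which none of the 3 windows held. Such a match is a description of the letters and not evidence of binding.

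Tumor mesenchymal-like nuclei held most UMIs of each gene but Vcan, as they did of all genes together. They made up 54.6% of nuclei and 77.2% of all UMIs, and held 82.4% of all Tnc UMIs (44179 of 53606), 83.1% of Thbs2, 81.4% of Ccn1, 80.9% of Spp1, 78.8% of Fn1, 77.0% of Sparc, 76.8% of Thbs1 and 68.4% of Ccn2. For Postn and Vcan the share was 52.9% and 38.5%. The shares of Tnc, Thbs2, Ccn1, Spp1 and Fn1 were thus above the class's share of all UMIs, Fn1 only slightly, and those of Sparc, Thbs1, Ccn2, Postn and Vcan below it. The 61 host fibroblast-like nuclei, 0.348% of all, held 24.9% of Postn and 10.4% of Vcan UMIs, and macrophage-like nuclei held 27.5% of Vcan. Because tumor mesenchymal-like nuclei also held more UMIs each, levels below are CPM of the summed counts of a class, and they are compared within a gene only.

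**Figure D1:**
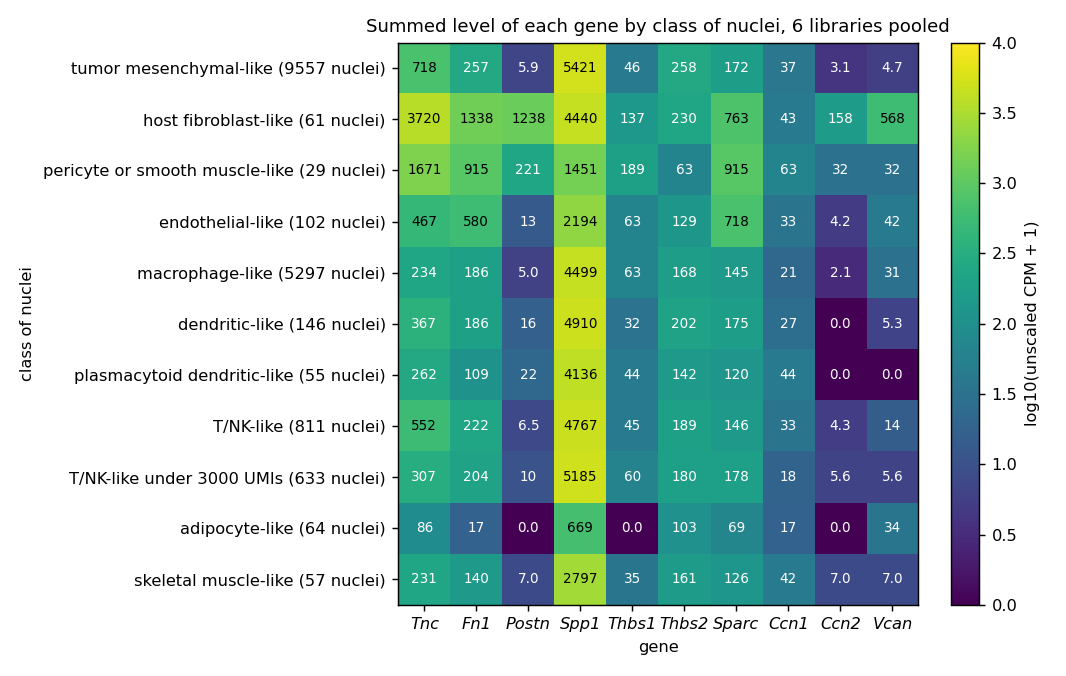
Level of each gene (columns) in each class of nuclei (rows) as unscaled CPM of the class sum over 6 libraries, with color on a log10 scale and the value printed in each cell. Tnc, Fn1, Postn, Ccn2 and Vcan were highest in the 61 host fibroblast-like nuclei, and Spp1 lies between 4136 and 5421 CPM in 7 of the 11 rows, T/NK-like nuclei included.

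Per CPM the stroma was the richer source of several genes, on few nuclei. Tnc (ENSMUSG00000028364) lies on the minus strand of chromosome 4, from 63959785 to 64047015. Its pooled level was 3720 CPM in host fibroblast-like, 1671 in pericyte or smooth muscle-like, 718 in tumor mesenchymal-like, 467 in endothelial-like and 234 in macrophage-like nuclei. The fibroblast value rested on 1 library: 458 of its 517 UMIs came from CO replicate 3, at 8577 CPM over 18 nuclei, against 692 CPM in the tumor mesenchymal-like nuclei of that library. In KO replicate 3, the other library with at least 10 such nuclei, Tnc was at 469 CPM in 24 host fibroblast-like nuclei and 673 CPM in tumor mesenchymal-like nuclei. The order of these 2 classes was therefore not the same in both libraries. The pericyte value rested on 51 of 53 UMIs from KO replicate 3. Endothelial-like levels, 222 to 732 CPM, overlapped those of tumor mesenchymal-like nuclei, 540 to 1095 CPM.

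Postn (chromosome 3, 54361109 to 54391037, plus strand) was the most uneven gene. Host fibroblast-like nuclei held it at 1238 CPM pooled, with 1479 CPM in both CO replicate 3 and KO replicate 3, whereas tumor mesenchymal-like nuclei held 2.15 to 20.9 CPM. Vcan (chromosome 13, 89655312 to 89742509, minus strand) was at 215 to 1161 CPM in the host fibroblast-like nuclei of the 6 libraries, 12.2 to 46.5 CPM in macrophage-like nuclei and 2.97 to 7.03 CPM in tumor mesenchymal-like nuclei. These 3 ranges did not overlap. The lowest host fibroblast-like value, 215 CPM, is what 1 UMI gives in the 4 such nuclei of KO replicate 1. It is below their floor of 645 CPM, and 1 UMI there has a 95% counting interval of 5.44 to 1198 CPM. Fn1 (chromosome 1, 71585520 to 71653200, minus strand) was at 645 to 2099 CPM in host fibroblast-like nuclei, above its 201 to 345 CPM in tumor mesenchymal-like nuclei in every library, and at 326 to 1098 CPM in endothelial-like nuclei.

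Sparc (chromosome 11, 55394500 to 55423183, minus strand) was at 915 CPM in pericyte or smooth muscle-like, 763 in host fibroblast-like, 718 in endothelial-like, 172 in tumor mesenchymal-like and 145 in macrophage-like nuclei. Its tumor mesenchymal-like range, 71.7 to 258 CPM, held the whole macrophage-like range, 103 to 195 CPM. Ccn2 (chromosome 10, 24595442 to 24598683, plus strand) was low in the large classes, at 1.14 to 6.33 CPM in tumor mesenchymal-like nuclei (188 UMIs in 9557 nuclei) and 0 to 3.67 CPM in macrophage-like nuclei. An unnamed cluster of 67 nuclei led by Cdh13 held 16 further UMIs. In host fibroblast-like nuclei the CO libraries held it at 290, 280 and 318 CPM and the KO libraries at 0, 0 and 36.1 CPM. Only 22 UMIs lie behind those 6 values, and 3 counts in KO replicates 1 and 2 would have been 645 and 201 CPM, so the difference in level was not tested. The share of these nuclei with a Ccn2 UMI was 41.1 ± 8.39% for CO against 2.78 ± 4.81% for KO (SD, n = 3, exact permutation p = 0.1), and 21.1 ± 25.9 against 1.75 ± 3.04% after thinning each nucleus to 1000 UMIs (exact permutation p = 0.4). These shares rest on 2, 5 and 18 CO nuclei and 4, 8 and 24 KO nuclei before thinning. The set minimum for a test was 20 nuclei in a library, which only KO replicate 3 reached, so no difference is drawn from them. Thbs2 (chromosome 17, 14665500 to 14694235, minus strand) was at 180 to 415 CPM in tumor mesenchymal-like and 115 to 254 CPM in macrophage-like nuclei. Ccn1 (chromosome 3, 145646976 to 145649981, minus strand) was at 16.6 to 71.5 and 10.8 to 26.8 CPM and Thbs1 (chromosome 2, 118111876 to 118127133, plus strand) at 24.7 to 72.2 and 20.4 to 102 CPM in the same 2 classes.

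Spp1 (chromosome 5, 104435118 to 104441050, plus strand) was found in nearly every nucleus of every large class. At least 1 Spp1 UMI was present in 97.7 to 99.9% of tumor mesenchymal-like and 94.8 to 99.9% of macrophage-like nuclei of a library, and also in 97.4 to 100% of T/NK-like nuclei with under 3000 UMIs. Its level in those T/NK-like nuclei, 3599 to 7310 CPM, was above the macrophage-like level of the same library in 6 of 6 libraries. Activated T cells can make osteopontin, so this class is no strict blank. Whether a macrophage-like level no higher than in this class is background or expression was not tested. Shares this close to all nuclei cannot order the classes.

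Free RNA in the nuclei suspension was estimated for macrophage-like nuclei in each library. The measure was the median ratio of the macrophage-like to the tumor mesenchymal-like CPM over 12 tumor mesenchymal marker genes. The CO libraries gave 10.1, 6.20 and 6.73% and the KO libraries 5.40, 14.1 and 17.1% (7.68 ± 2.11 and 12.2 ± 6.09%, SD, n = 3, exact permutation p = 0.4, two-sided). KO replicate 1 was the lowest of the 6 libraries and the other KO libraries were the highest. The expected level of a gene was this ratio times its tumor mesenchymal-like CPM, which takes free RNA to have the composition of the tumor mesenchymal-like sum.

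Observed Tnc in macrophage-like nuclei was 122, 119 and 222 CPM for CO and 263, 284 and 346 CPM for KO. The expected levels were 55.6, 33.5 and 46.6 CPM and 59.1, 96.5 and 115 CPM. Observed levels were thus 2.20 to 4.75 times the expected ones, with a median of 3.28 that was the lowest among the 10 genes (3.50 ± 1.28 in CO and 3.46 ± 0.854 in KO, SD, n = 3, exact permutation p = 1). Observed minus expected Tnc came to 109 ± 57.7 CPM for CO and 207 ± 21.8 CPM for KO, without overlap of the groups (exact permutation p = 0.1, the smallest that 3 against 3 libraries can give). Among the other genes observed in all 6 libraries, the ratio was 12.6 to 283 for Vcan, 4.06 to 33.0 for Thbs1, 5.68 to 16.2 for Spp1, 3.79 to 16.0 for Fn1, 5.51 to 14.0 for Sparc, 3.72 to 10.8 for Thbs2 and 3.70 to 9.31 for Ccn1.

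A second reference gave another picture. T/NK-like nuclei should lack most of these genes, but all T/NK-like nuclei together held the tumor mesenchymal markers at 43.6 to 82.0% of the tumor mesenchymal-like level, so they were no clean background. The 633 with under 3000 UMIs held them at 3.57 to 24.5%, near the macrophage-like values. This limit was chosen after the data were seen. In them the Tnc level was 151, 123 and 177 CPM for CO against 311, 423 and 525 CPM for KO, so KO lay above CO there too. Macrophage-like Tnc was 0.658 to 1.25 times that level, with a median of 0.829, and exceeded it in 1 of 6 libraries. Against this reference the KO minus CO difference of macrophage-like Tnc was −126 CPM, the opposite sign to that from the marker estimate. Where macrophage-like Tnc was the higher, the counting intervals of the 2 classes were not apart. The reference was not scaled for its own free RNA. Its marker ratio against the macrophage-like one went from 3.57 against 6.20% in CO replicate 2 to 24.5 against 17.1% in KO replicate 3. Tnc in these T/NK-like nuclei was itself 1.88 to 6.71 times the level expected from their markers. Whether macrophage-like Tnc is background or expression was not tested.

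Vcan stood apart from the other genes on this scale. Macrophage-like Vcan was above that of T/NK-like nuclei under 3000 UMIs in 6 of 6 libraries, with counting intervals apart in 1. Those T/NK-like nuclei held 4 Vcan UMIs in all and were at 0 CPM in each KO library. Against all T/NK-like nuclei the Vcan ratio was 0.256 to 8.03, with a median of 5.70. The lowest was KO replicate 3, at 12.2 against 47.7 CPM. Of the other genes, Thbs1, Sparc and Ccn1 were above T/NK-like nuclei under 3000 UMIs in 3 of 6 libraries, Fn1, Thbs2, Postn and Ccn2 in 2, and Spp1 in none.

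**Figure D2:**
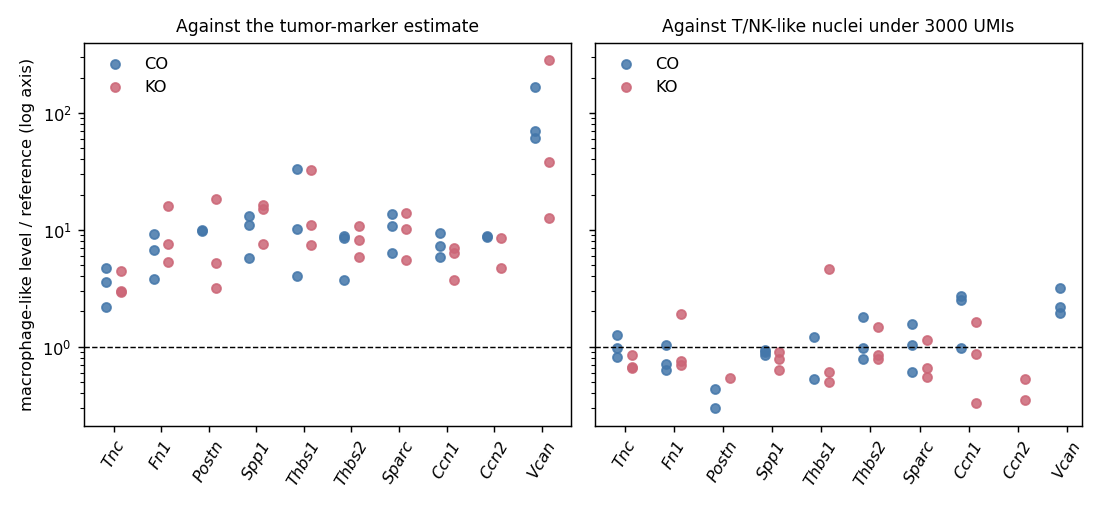
Macrophage-like level of each gene divided by the level expected from tumor mesenchymal markers (left) and by the level in T/NK-like nuclei with under 3000 UMIs (right), 1 point a library, on a log axis with the dashed line at 1. Ratios of 0 and ratios to a level of 0 are not drawn. All Tnc points lie above 1 on the left, at 2.20 to 4.75, and 5 of 6 lie below 1 on the right.

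For KO against CO, counts were summed per library and class and tested with the edgeR quasi-likelihood F-test, called at an adjusted p of at most 0.05 and a log2 fold change of at least 0.58 in size. No gene was called in any sum: 0 of 12852 in tumor mesenchymal-like nuclei (889 at an unadjusted p under 0.05, 33 called by DESeq2), 0 of 9740 in macrophage-like nuclei (530 and 5), 0 of 8492 in T/NK-like nuclei (592 and 11) and 0 of 13662 over all nuclei (661 and 12). The share called was 0% in each, and no member was called. Levels in this comparison are CPM with TMM scaling.

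Few members had groups that did not overlap. In macrophage-like nuclei 2 of the 8 genes tested, Tnc and Thbs1, had all KO libraries above CO, where 6.17% of all genes tested did, and 1, Spp1, had all below, where 5.56% did. In tumor mesenchymal-like nuclei the counts were 1 of 10 above (Tnc, against 7.12% of all genes) and 1 of 10 below (Spp1, against 5.61%). In T/NK-like nuclei they were 0 of 7 above (6.95%) and 1 of 7 below (6.48%), and over all nuclei 0 of 10 (5.76%) and 1 of 10 (5.13%). Without a scaling factor the counts above were 0 of 10 in tumor mesenchymal-like (5.4% of all genes), 2 of 8 in macrophage-like (5.94%, Tnc and Thbs1), 0 of 7 in T/NK-like (5.85%) and 0 of 10 in all nuclei (4.38%). The counts below were then 1 of 10 (7.21%), 1 of 8 (5.76%), 2 of 7 (7.42%) and 1 of 10 (6.93%) in the same order, being Spp1 in each and also Ccn1 in T/NK-like nuclei.

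In tumor mesenchymal-like nuclei the CO libraries held Tnc at 548, 531 and 665 CPM and the KO libraries at 1083, 737 and 677 CPM. All KO libraries lay above all CO libraries on this scale, the closest pair being CO replicate 3 and KO replicate 3, and KO replicate 1 was the highest. Without TMM scaling the groups overlapped, since CO replicate 3 was at 693 CPM and KO replicates 2 and 3 at 683 and 673 CPM. The means were 581 ± 73.1 and 832 ± 219 CPM (SD, n = 3), and edgeR put the log2 difference at 0.52 (SE 0.25, adjusted p = 0.577). In macrophage-like nuclei Tnc was at 122, 119 and 225 CPM for CO against 261, 300 and 352 CPM for KO, also without overlap (155 ± 60.5 and 304 ± 45.8 CPM, log2 fold change 0.98, SE 0.28, edgeR adjusted p = 0.806). Without KO replicate 1, edgeR called the macrophage-like Tnc difference, at a log2 fold change of 1.10 and an adjusted p of 0.00763. That fit called 17.6% of all 9711 genes tested, so such a call is not particular to Tnc. Over all nuclei, where fewer nuclei of a class and less RNA per nucleus cannot be told apart, the groups overlapped (log2 fold change 0.48, edgeR adjusted p = 0.672).

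Values that moved with the macrophage-like Tnc level were the tumor mesenchymal marker sum (15 genes), at 773 to 1445 CPM in the CO and 687 to 3653 CPM in the KO macrophage-like sums, and the Tnc level of shallow T/NK-like nuclei given above. In KO replicate 1 the marker sum was the lowest of all, 687 CPM, but tumor mesenchymal-like Tnc was the highest, so its expected macrophage-like Tnc (59.1 CPM) was above that of each CO library. The part of free RNA in the KO minus CO difference was not tested.

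Spp1 in tumor mesenchymal-like nuclei was at 9165, 7640 and 7212 CPM for CO against 5317, 1294 and 2184 CPM for KO. The KO libraries lay below all CO libraries here and in the other 3 sums, and KO replicate 1 lay nearest to CO. By edgeR the KO minus CO difference was −1.45 on the log2 scale (SE 0.55, adjusted p = 0.577), and −2.20 without KO replicate 1 (edgeR adjusted p = 0.0296), where 18.9% of all genes were called. In macrophage-like nuclei Spp1 was at 5279, 5236 and 6690 CPM in CO and 4668, 2704 and 2884 CPM in KO (log2 fold change −0.75, SE 0.31, edgeR adjusted p = 0.806). Without KO replicate 1 this value was −1.04 (edgeR adjusted p = 0.00972). In T/NK-like nuclei edgeR gave −1.07 (SE 0.43, adjusted p = 0.687). That class held tumor mesenchymal markers at 43.6 to 82.0% of the tumor mesenchymal-like level, so its value is not separate from the tumor mesenchymal-like one.

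Ribosomal protein transcripts, most of which are cytoplasmic, were also low in the KO libraries with the least Spp1. Their 83 genes summed to 15833, 13139 and 9211 CPM in the tumor mesenchymal-like nuclei of CO and 15050, 3207 and 6494 CPM in those of KO. Spp1 as a share of that sum was 58.3, 59.1 and 81.6% for CO against 35.7, 37.4 and 33.4% for KO, so the groups stayed apart on this scale. In macrophage-like nuclei the share was 28.6, 27.5 and 42.8% for CO against 20.1, 41.7 and 22.7% for KO, and the groups overlapped.

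**Figure D3:**
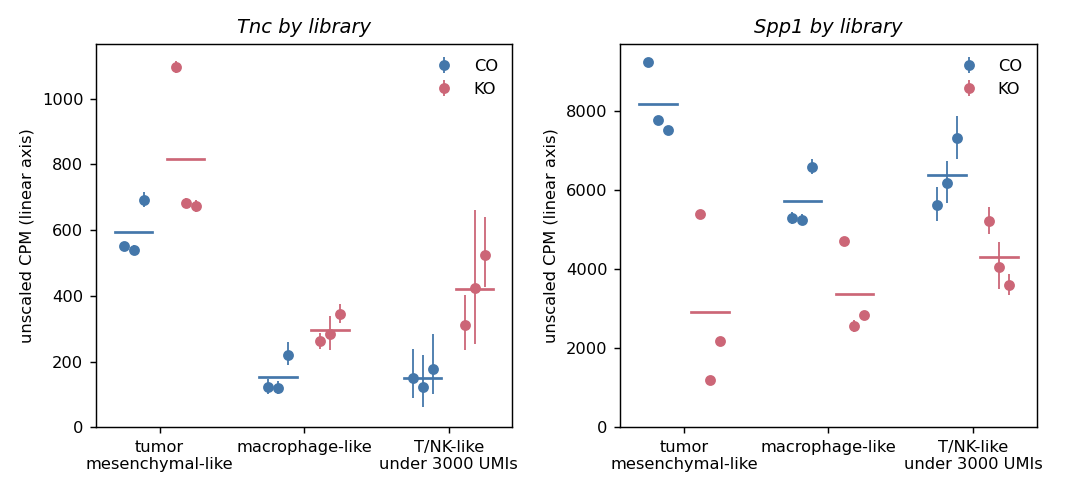
Tnc (left) and Spp1 (right) in 3 classes, 1 point a library, as unscaled CPM on a linear axis, with exact 95% counting intervals as bars and group means as lines. For Tnc the KO points lie above all CO points in macrophage-like nuclei and in T/NK-like nuclei under 3000 UMIs, while in tumor mesenchymal-like nuclei CO replicate 3, at 693 CPM, lies above KO replicates 2 and 3. For Spp1 the KO points lie below all CO points in each class.

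Thbs1 in macrophage-like nuclei was at 20.4, 50.4 and 50.1 CPM for CO against 102, 57.0 and 64.1 CPM for KO. The groups did not overlap, with KO replicate 1 the highest (log2 fold change 0.92, SE 0.37, edgeR adjusted p = 0.806). In tumor mesenchymal-like nuclei the Thbs1 groups overlapped (0.03, SE 0.37, and −0.03 without a scaling factor). Fn1 in macrophage-like nuclei was at 95.4, 115 and 216 CPM in CO and 249, 228 and 207 CPM in KO, so 1 KO library lay below CO replicate 3 (log2 fold change 0.70, SE 0.30, edgeR adjusted p = 0.806). In tumor mesenchymal-like nuclei its log2 fold change was −0.22 (SE 0.20). The difference between these 2 Fn1 values, tested as an edgeR interaction, was 0.86 (SE 0.20, adjusted p = 0.387). Without KO replicate 1 that difference was 1.11 (edgeR adjusted p = 0.0245), in a fit that called 1.89% of all genes.

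Thbs2 and Sparc showed no separation of the groups. Thbs2 was at 412, 262 and 227 CPM in CO and 194, 194 and 253 CPM in KO tumor mesenchymal-like nuclei (log2 fold change −0.49, SE 0.26), and at 155, 140 and 142 CPM in CO and 114, 220 and 258 CPM in KO macrophage-like nuclei (0.43, SE 0.29). Without KO replicate 1, edgeR called Thbs2 in macrophage-like nuclei (0.73, adjusted p = 0.0123), the Thbs2 interaction (1.19, adjusted p = 0.0167), the Spp1 interaction (1.30, adjusted p = 0.0218), Sparc in tumor mesenchymal-like nuclei (−0.96, adjusted p = 0.0323) and Spp1 in T/NK-like nuclei (−1.57, adjusted p = 0.0364). The shares of all genes called without that library were 17.6% in macrophage-like, 0.986% in T/NK-like and 18.9% in tumor mesenchymal-like nuclei and 1.89% for the interaction. With all libraries Sparc had a log2 fold change of −0.34 (SE 0.40) in tumor mesenchymal-like and −0.05 (SE 0.28) in macrophage-like nuclei.

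Ccn1, Ccn2, Postn and Vcan had too wide a spread to place. In tumor mesenchymal-like nuclei the log2 fold changes were 0.33 (SE 0.45), 1.01 (SE 0.66), −0.59 (SE 0.83) and 0.25 (SE 0.44). In macrophage-like nuclei Ccn1 was at 0.23 (SE 0.39) and Vcan at −0.01 (SE 0.49), while Postn and Ccn2 were too low there to be tested. Vcan in macrophage-like nuclei was at 18.2, 42.9 and 33.4 CPM in CO and 46.2, 38.8 and 12.4 CPM in KO, with KO on both sides of CO.

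**Figure D4:**
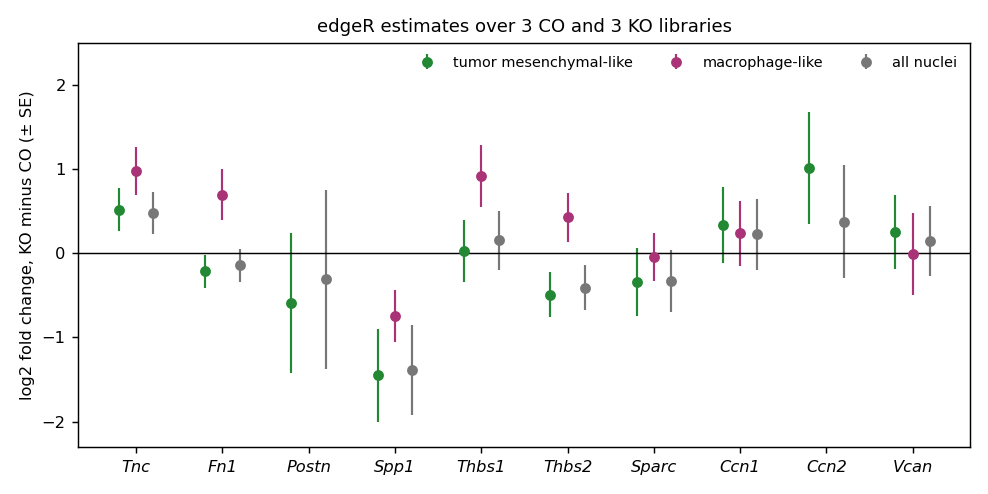
Log2 fold change, KO minus CO, from edgeR over 3 CO and 3 KO libraries for each gene in tumor mesenchymal-like (green), macrophage-like (purple) and all nuclei (gray), with bars of 1 SE. Spp1 lies lowest at −1.45 in tumor mesenchymal-like nuclei, and macrophage-like Tnc at 0.98 and Thbs1 at 0.92 lie above their tumor mesenchymal-like values.

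Within the tumor mesenchymal-like class, Tnc varied by cluster. It was highest in the cluster led by Frmd5 in 5 of 6 libraries, at 1201, 1017 and 775 CPM in CO and 2002, 1427 and 1253 CPM in KO, and in CO replicate 3 the cluster led by Ifit1 was higher, at 807 CPM. KO lay above CO without overlap in 2 of 6 tumor mesenchymal-like clusters, those led by Frmd5 and Plcd3. In macrophage-like nuclei this was so in 1 of 3 clusters, led by Mrc1, the mannose receptor (133, 101 and 147 CPM for CO against 250, 229 and 277 CPM for KO). The tumor mesenchymal marker ratio of that cluster was 8.40 ± 3.49% in CO and 10.7 ± 3.82% in KO (SD, n = 3, exact permutation p = 0.6). Spp1 was lower in KO without overlap in 5 of 6 tumor mesenchymal-like and 3 of 3 macrophage-like clusters. These clusters were drawn without the 10 genes. The share of all genes without overlap was taken for class sums only, so these cluster counts have none beside them. The clusters also share the same 6 libraries, so the counts are not separate tests.

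The macrophage-like Vcan lay largely in 1 cluster, led by Slfn4 and rich in Ccr2, a chemokine receptor of monocytes. It was at 79.0, 187 and 101 CPM there in CO and 169, 193 and 35.2 CPM in KO, against at most 20.5 CPM in the clusters led by Mrc1 or H2-Aa in any library. Thbs1 was highest in the same cluster in 5 of 6 libraries, at 29.6, 170 and 72.3 CPM in CO and 298, 134 and 106 CPM in KO, and the groups overlapped. Tnc, Spp1 and Thbs2 were instead highest in the cluster led by H2-Aa, an MHC class II gene, in 6 of 6 libraries. Ccn1 was highest in the tumor mesenchymal-like cluster led by the immediate-early gene Ier2 in 6 of 6 libraries, at 58.2 to 201 CPM, and Postn in the cluster led by Frmd5 in 5 of 6, at 12.4 to 51.9 CPM over the 6 libraries.

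**Figure D5:**
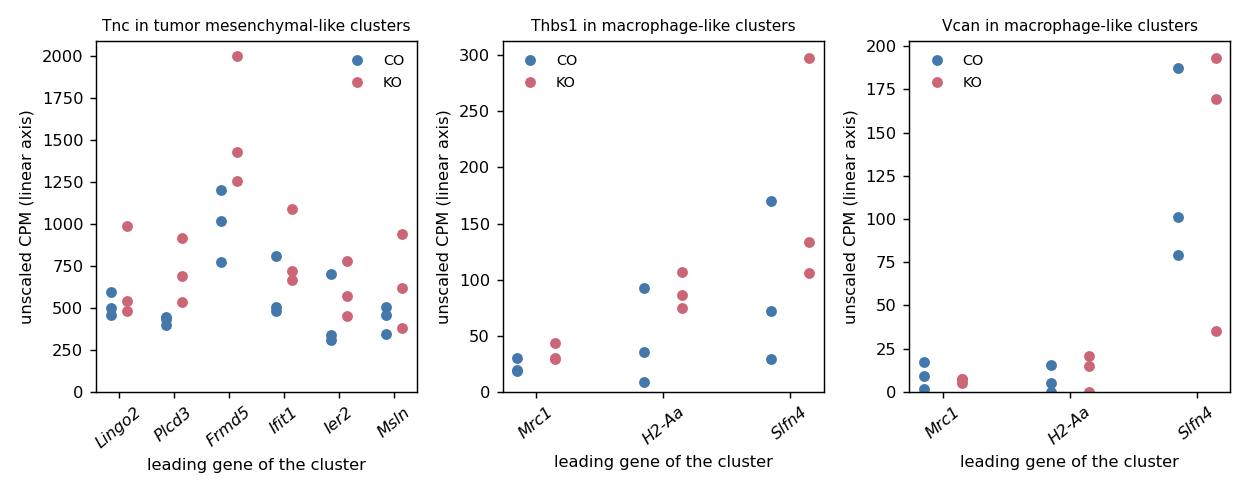
Tnc in the 6 tumor mesenchymal-like clusters (left) and Thbs1 (middle) and Vcan (right) in the 3 macrophage-like clusters, named by their leading gene, 1 point a library, as unscaled CPM on a linear axis. Tnc is highest in the cluster led by Frmd5 in 5 of 6 libraries, and Vcan in the cluster led by Slfn4 lies at 35.2 to 193 CPM, above the other macrophage-like clusters in each library.

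Depth differed between libraries, so shares of nuclei with a UMI were also taken after thinning each nucleus to 1000 UMIs. For Tnc the thinned share in macrophage-like nuclei was 10.6, 10.6 and 14.8% for CO against 21.8, 14.9 and 23.4% for KO (means 12.04 ± 2.41 and 20.01 ± 4.53%, SD, n = 3, exact permutation p = 0.1). CO replicate 3 and KO replicate 2 were nearly equal. In T/NK-like nuclei, which should lack the gene, it was 19.3 ± 2.13% for CO against 28.1 ± 7.54% for KO (exact permutation p = 0.1), and in tumor mesenchymal-like nuclei 32.1 ± 2.16 and 41.4 ± 8.001% (exact permutation p = 0.1). The macrophage-like share was below the T/NK-like share in each library. T/NK-like nuclei of all depths, however, held tumor mesenchymal markers at 43.6 to 82.0% of the tumor mesenchymal-like level. Macrophage-like nuclei held them at 5.40 to 17.1%, so this order cannot tell background from expression. Unthinned, the macrophage-like Tnc share was 12.01, 12.6 and 24.0% for CO against 25.9, 29.9 and 34.1% for KO. Thinning left out 176 to 632 macrophage-like nuclei a library and 631 tumor mesenchymal-like nuclei of KO replicate 3.

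Genes around the members were counted from lists, with edgeR calling 0 in each list and sum. The YAP/TEAD list had 9 of 11 tested genes higher in KO in tumor mesenchymal-like nuclei (median log2 fold change 0.42, against −0.02 over all genes) and 5 of 6 in macrophage-like nuclei (0.83, against 0.01). Wwtr1, which encodes the YAP paralog TAZ, was at 1671, 1766 and 1161 CPM in CO and 1891, 2693 and 2732 CPM in KO tumor mesenchymal-like nuclei, without overlap (0.67, SE 0.30). Tead1, a DNA-binding partner of YAP, had a value of 0.31 (SE 0.24) and the receptor kinase Axl 0.14 (SE 0.15). In macrophage-like nuclei Wwtr1 was at 1.02 (SE 0.41), Tead1 at 1.01 (SE 0.51) and Axl at −0.05 (SE 0.21). Wwtr1 was at 129 to 227 CPM in CO there, far below the tumor mesenchymal-like level, and at 163, 381 and 551 CPM in KO. Tead1 was at 43.9, 52.8 and 69.5 CPM in CO and 34.0, 179 and 136 CPM in KO macrophage-like nuclei. Both were highest in KO replicates 2 and 3, as was the free-RNA ratio. The part of free RNA in these macrophage-like values was not tested.

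Matricellular relatives were lower in KO in 12 of 15 tested genes in tumor mesenchymal-like nuclei (median log2 fold change −0.59) and higher in 6 of 7 in macrophage-like nuclei (0.23). Bgn, the small proteoglycan biglycan, was at 58.2, 64.5 and 62.2 CPM in CO and 36.3, 18.7 and 23.8 CPM in KO tumor mesenchymal-like nuclei, without overlap (−1.23, SE 0.25, edgeR adjusted p = 0.577). Fbln1 (fibulin 1) was at −0.39 (SE 0.36) there, and Tgfbi, an integrin ligand with a far higher level in macrophage-like nuclei, at 0.01 (SE 0.33) there and 0.11 (SE 0.27) in macrophage-like nuclei.

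Receptors of the members had a median log2 fold change of 0.02 in tumor mesenchymal-like nuclei (11 of 20 higher) and 0.14 in macrophage-like nuclei (9 of 16 higher). Cd44, the osteopontin and hyaluronan receptor, was at 285, 294 and 264 CPM in CO and 365, 404 and 426 CPM in KO tumor mesenchymal-like nuclei, without overlap (0.50, SE 0.17, edgeR adjusted p = 0.577). The integrin subunit Itgav also had no overlap there with TMM scaling, but did without it (0.18, SE 0.16), and Itgb1 overlapped (−0.04, SE 0.23). In macrophage-like nuclei Itga9, a tenascin C and osteopontin receptor subunit, was at 837, 1053 and 897 CPM in CO and 776, 761 and 812 CPM in KO, without overlap (−0.25, SE 0.21), Itgav was at 0.23 (SE 0.24) and Itgb5 at −0.34 (SE 0.21).

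Proteases and crosslinkers that act on these proteins had medians of −0.16 in tumor mesenchymal-like nuclei (9 of 12 lower) and 0.49 in macrophage-like nuclei (5 of 5 higher). The membrane protease Mmp14 was at 0.09 (SE 0.14) and 0.45 (SE 0.23), and the crosslinking transglutaminase Tgm2 was at 0.49 (SE 0.37) in macrophage-like nuclei. Immediate-early genes were lower in KO in 7 of 8 genes in tumor mesenchymal-like nuclei (median −0.70) and in 6 of 7 in macrophage-like nuclei (−0.30), with Jun at −0.76 (SE 0.54), Junb at −0.85 (SE 0.34) and Egr1 at −0.03 (SE 0.19) in the former.

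The genes with the pattern most like each member were found by Pearson correlation of log2 CPM over 42 sums (a class in a library with at least 10 nuclei, 9 classes) among 12950 genes. For Tnc these were Gmds (0.90), Cnot6 (0.88), Rnf216 (0.88), Hnrnpf (0.85) and Cyfip1 (0.83). Spp1 was most like Gm11808 (0.89), Rpl11 (0.87) and Edf1 (0.87), Fn1 most like Sntb2 (0.95), and Postn most like Brinp3 (0.77), Cxcl14 (0.75) and Ptn (0.74). Ccn2 was most like Aspn (0.87) and Ptn (0.85), genes of fibroblast matrix and growth factor biology, and Thbs1 most like Osmr (0.84) and Klf4 (0.82). The sums share libraries, free RNA and depth, so these values describe the data only.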

How the data were processed

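The authors isolated nuclei from frozen tumors, and some samples had extra washes against free RNA (which ones was not stated). Per the labels, 3′ libraries were counted with Cell Ranger 3.0.2 against GRCm38 (the deposited headers name 3.1.0), with Seurat 5.2.1 also listed. The deposited values are raw UMI counts, whole numbers per gene and nucleus, with no free-RNA correction visible. No column was left unused (0), and whether introns were counted is not given in the sources used here.

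Nuclei with 100 to 7500 genes and under 20% mitochondrial counts were kept (18014). Scrublet's threshold marked 11 doublets, too few to rely on, so the 500 highest-scoring nuclei (0.8% per 1000 barcodes, by library) were removed. Counts were log-transformed after scaling to 10000, 2000 variable genes without the 10 members gave 30 components, integrated with Harmony, and leidenalg 0.10.2 (20 neighbors, resolution 1, scanpy 1.11.5) gave the clusters. Names came from marker lists, with the limit on Y-linked genes given above, and are rebuilt, not the study's. Sums per library and class were tested with edgeR 4.0.16 (R 4.3.3), with Benjamini-Hochberg adjustment over all genes tested, checked on simulated counts; DESeq2 1.42.0 was an alternative. Replicate libraries differed beyond sampling noise (chi-square per degree of freedom 8.75 to 202). Exact permutation tests were two-sided, and 95% intervals (exact Poisson and binomial) and the floor of 3 counts cover counting error only. All 10 members were named, and from each gene list the 3 highest tested genes in tumor mesenchymal-like and in macrophage-like nuclei. The members and lists were chosen with earlier results of these data known. RefSeq windows matched 7 of 10 members (not Fn1, Thbs1 and Ccn2). Gene positions are from GENCODE vM21.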

Additional observations from a re-analysis of the deposited data

How the results depend on the processing

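With edgeR and all libraries no gene was called in any sum. DESeq2 called 12 genes over all nuclei, 5 in macrophage-like, 11 in T/NK-like and 33 in tumor mesenchymal-like nuclei and 10 for the interaction, and dropping the low-count filter gave 1 in macrophage-like and 39 in T/NK-like nuclei. Leaving out 1 library gave 0 to 1711 calls in macrophage-like, 0 to 2437 in tumor mesenchymal-like and 0 to 88 in T/NK-like nuclei and 0 to 235 for the interaction, each highest value being without KO replicate 1. Same-numbered libraries deviated together for replicates 1 and 3 but not for 2: over all nuclei the correlation of CO and KO replicates 2 was -0.31, against 0.52 and 0.40 for 1 and 3. The fit with the replicate block called 1 gene in T/NK-like nuclei and none of the members. For macrophage-like Tnc, the KO minus CO difference over the background was 98.0 CPM and became -126 with T/NK-like nuclei under 3000 UMIs as reference, which was chosen after seeing the data. The median ratio of observed to expected Tnc, 3.28, became 0.398 with all T/NK-like nuclei, 0.829 with those under 3000 UMIs and 5.72 with classes set by marker counts.

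Of 485 alternative values for 35 log2 fold changes of members, 444 kept their direction and side of the threshold, 9 passed it and 32, over 14 results, reversed. Reversals with all libraries were, over all nuclei, Fn1 0.0928, Ccn2 -0.22 and Vcan -0.15 with at least 500 genes and under 5% mitochondrial counts, Postn 0.10 with the replicate block and Vcan -0.14 after thinning. In macrophage-like nuclei they were Thbs2 -0.0905 with marker-count classes and Vcan 0.17 with these, 0.0108 with DESeq2 and 0.0142 with the unnamed macrophage-marker cluster added after seeing the data, and in tumor mesenchymal-like nuclei Vcan -0.0374 with the stricter nuclei filter and Thbs1 -0.0331 without a scaling factor, an alternative also added after seeing the data. The cause was not tested. Leaving out 1 library, the ranges of the results that reversed were over all nuclei, Fn1 -0.24 to 0.00141, Postn -1.16 to 1.55, Thbs1 -0.14 to 0.52, Ccn1 -0.36 to 0.56, Ccn2 -0.0540 to 1.26, Vcan -0.18 to 0.61, in macrophage-like nuclei, Sparc -0.37 to 0.16, Ccn1 -0.11 to 0.47, Vcan -0.72 to 0.43, in tumor mesenchymal-like nuclei, Postn -1.12 to 0.67, Thbs1 -0.30 to 0.39, Ccn1 -0.31 to 0.69, Vcan -0.0762 to 0.60. Depth limits Ccn2, Postn and Vcan, whose levels were low in tumor mesenchymal-like nuclei and rested on few nuclei in the host fibroblast-like class. The log2 fold changes of Tnc and Spp1, with no background subtracted, kept their direction under every alternative run in tumor mesenchymal-like, macrophage-like and all nuclei. The macrophage-like Tnc difference over the background reversed, as given above.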
